A study of Mus musculus with 4 samples.

Results

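The genes described here are 39 mouse interferon-stimulated genes, that is, genes whose transcription is switched on by interferons, of the 31053 genes in the count matrices. They were taken from a fixed list of symbols, which was drawn up with earlier results of these data known, and all 39 were found in the matrices of all 4 libraries. Their RNA was followed in bone marrow cells of 4 mouse genotypes, by cell class. In cells with classical monocyte markers the 39 genes together had 3.56 times less RNA in DKO than in TWT, and in T cells of the same libraries they had 1.40 times more.

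Interferons are secreted proteins that warn cells of viruses and other microbes. Type I interferons bind the receptor formed by Ifnar1 and Ifnar2, the kinases Jak1 and Tyk2 then phosphorylate STAT proteins such as Stat2, which join Irf9 in a complex that binds a DNA element repeating the bases GAAA in promoters. Interferon-γ, the product of Ifng made mainly by T cells and NK cells, acts through Ifngr1 and Ifngr2 on a different promoter element. The genes so induced encode RNA sensors, enzymes and RNA-binding proteins that block viral replication, GTPases that attack vacuoles holding microbes, and factors that raise or dampen the response. In marrow, interferons also act on stem cells and on the output of myeloid cells.

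All mice were on a C57/B6 background and 12 months old by the labels, and the marrow came from femur and tibia, freed of red cells. TWT carried wild-type Il6, Diaph1 (the gene of the actin nucleator mDia1) and miR-146a (a microRNA that restrains Toll-like receptor and NF-κB signaling). IL-6 KO lacked Il6 alone, DKO lacked mDia1 and miR-146a, and TKO lacked all 3 genes. Each genotype gave 1 library, so no difference between genotypes could be tested, and every interval below is a 95% interval that covers counting error only. The sources used here do not say how many mice were pooled per library. The deletions are constitutive, so all tissues of a mouse carried them. The study reports leukemia in most moribund DKO mice of about this age, and the monocyte gate used below does not separate leukemic from other cells.

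After barcodes outside 500 to 4000 detected genes or with over 15% UMIs (unique molecular identifiers, which count captured RNA molecules) of mitochondrial genes were dropped, 6794 to 9627 cells remained per library, of whole-library totals between 61292684 and 85145074 UMIs. Of 36789 distinct barcodes, 153 occurred in more than 1 library. Diaph1 had 163 CPM (the UMIs of a gene per 1000000 UMIs) in TWT and 178 in IL-6 KO against 11.4 in DKO and 12.4 in TKO, in the direction of the labels. Il6 had 52 UMIs in TWT and 20 in DKO, against 606 in IL-6 KO and 587 in TKO. A tag at the 3′ end can remain after a deletion elsewhere in the gene, so these counts do not check the Il6 labels, and TKO and IL-6 KO below stand for the libraries with those labels. Xist had 49030 UMIs in IL-6 KO and at most 7 in any other library, so that library also differs from the others in the sex of its mice. Cells were placed in 15 classes by 8 markers each, and 83.7% to 89.0% of the cells were placed.

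The 39 genes lie on 14 chromosomes of GRCm38, and 19 of them form 7 groups of neighbours less than 1 Mb apart. The largest group is that of Ifit2, Ifit3, Ifit3b and Ifit1 on chromosome 19 (34550694 to 34650009). Ifi209, Ifi204 and Ifi203 lie together on chromosome 1, Gbp7, Gbp3 and Gbp2 on chromosome 3, and Oas2, Oas3 and Oas1a on chromosome 5. A RefSeq promoter (GRCm38.p6, 250 bases before to 50 bases after the start of a transcript) was found for 29 members, and none for Oas2, Usp18, Mx1, Ifi27l2a, Zbp1, Rtp4, Gbp4, Iigp1, Parp14 and Ifi204. The letters GAAA, any 2 bases and GAAA, read on either strand, stood in a promoter of 17 of the 29 members (58.6%), compared with 3.99% of all 27025 genes with such a promoter. The letters TTC, any 3 bases and GAA, the core of the element for STAT dimers, stood in 5 of the 29 (17.2%), compared with 9.55% of all genes. Both searches were independent, so a base may count for both.

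The 150 bases before the transcript start are shown for 4 members. Ifit3, Isg15 and Oas3 were the members with this element in these bases that were at least 2-fold lower in DKO monocytes and at least 2-fold higher in DKO T cells, and Irgm1 was the one lower by 2-fold or more in both. Capitals mark GAAA, 2 bases, GAAA or its reverse complement, and all 4 stretches read 5′ to 3′ on the strand of the gene. The stretch of Ifit3 is chr19:34583379-34583528 on the plus strand, and those of Isg15 (chr4:156200819-156200968), Oas3 (chr5:120777660-120777809) and Irgm1 (chr11:48871421-48871570) are on the minus strand.
Ifit3: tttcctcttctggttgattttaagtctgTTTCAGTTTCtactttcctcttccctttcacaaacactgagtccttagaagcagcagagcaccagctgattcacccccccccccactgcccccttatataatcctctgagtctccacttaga
Isg15: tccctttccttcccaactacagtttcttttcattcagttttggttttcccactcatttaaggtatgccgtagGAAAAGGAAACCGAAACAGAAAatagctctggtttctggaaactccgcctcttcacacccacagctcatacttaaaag
Oas3: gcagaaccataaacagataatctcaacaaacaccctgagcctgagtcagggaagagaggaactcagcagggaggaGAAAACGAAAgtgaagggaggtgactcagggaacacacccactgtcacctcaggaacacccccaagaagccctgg
Irgm1: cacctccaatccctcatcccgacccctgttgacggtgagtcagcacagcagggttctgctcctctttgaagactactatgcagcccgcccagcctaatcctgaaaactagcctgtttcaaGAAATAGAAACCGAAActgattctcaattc
The match nearest to the start began 122 bases before it in Ifit3, 66 in Isg15, 75 in Oas3 and 24 in Irgm1. Isg15 held 3 overlapping matches and Irgm1 held 2. Of the other members that were 2-fold lower in DKO monocytes and 2-fold higher in DKO T cells, Isg20 and Irf7 held no match in any of their windows, and Mx1 and Rtp4 are among the members named above. A match is a description of these letters and not of binding.

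The summed level of the 39 genes (their UMIs as CPM of all UMIs of the cells of a class) differed between classes and libraries. Classical monocytes had 529 CPM in DKO, against 1881 in TWT, 2388 in IL-6 KO and 2882 in TKO. T cells had 1806 CPM in DKO, against 1289 in TWT, 1369 in IL-6 KO and 1887 in TKO. The DKO library was thus the lowest of the 4 in monocytes, whereas in T cells DKO and TKO were both above TWT and IL-6 KO. B cells had 958 CPM in DKO, against 1158 in TWT, 1469 in IL-6 KO and 1748 in TKO, and mature neutrophils had 519 CPM in DKO, against 904 in TWT, 1319 in IL-6 KO and 1745 in TKO. Immature neutrophils had 227 CPM in DKO, against 292 in TWT, 314 in IL-6 KO and 372 in TKO, and granulocyte-monocyte progenitors had 135 CPM in DKO, against 248 in TWT, 239 in IL-6 KO and 240.5 in TKO. In each of these 6 classes other than T cells, DKO was the lowest library. TKO was the highest library in each of them except the progenitors, where TWT, IL-6 KO and TKO had overlapping intervals. Macrophages, outside these classes, had 1210 CPM (1087 to 1344) in DKO, from 65 cells, and members there went both ways. Irf7 had 148 CPM in DKO macrophages, against 21.2 in TWT, 0 in IL-6 KO and 147 in TKO. Ifi27l2a had 24.1 CPM in DKO, against 296 in TWT, 163 in IL-6 KO and 403 in TKO. The values outside DKO rest on at most 14 UMIs each. NK cells are not among these 6 classes, and no summed level is given for them. DKO was the highest library there for some members and the lowest for others. Samd9l had 190 CPM in DKO, against 117 in TWT, 125 in IL-6 KO and 182.5 in TKO. Ifi203 had 294 CPM in DKO, against 217 in TWT, 299 in IL-6 KO and 220 in TKO. Ifi47 was lowest in DKO, with 56.9 CPM, against 161 in TWT, 155 in IL-6 KO and 75.5 in TKO. The DKO values rest on 20, 31 and 6 UMIs. Isg15 in NK cells had 75.8 CPM in DKO, against 0 in TWT, 2.32 in IL-6 KO and 18.9 in TKO. Zbp1 had 94.8 CPM in DKO, against 34.8 in TWT, 51 in IL-6 KO and 69.2 in TKO. Gbp7 was lowest in DKO, with 75.8 CPM, against 126 in TWT, 153 in IL-6 KO and 132 in TKO. So was Igtp, with 9.48 CPM, against 82.6 in TWT, 30.2 in IL-6 KO and 37.8 in TKO. The DKO values of these rest on 8, 10, 8 and 1 UMIs.

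**Figure D1:**
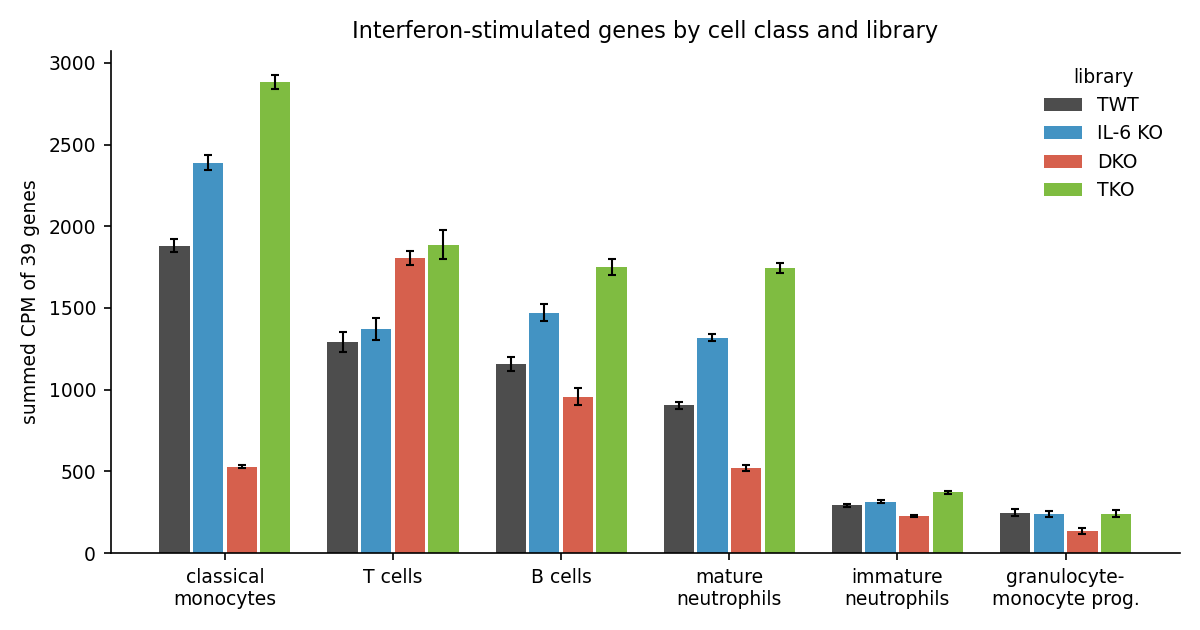
Summed CPM of the 39 interferon-stimulated genes (y axis, from 0) in 6 cell classes (x axis) of the TWT, IL-6 KO, DKO and TKO libraries. Bars are the pooled level of 1 library each and whiskers exact Poisson 95% intervals, and the DKO bar is the lowest in every class but T cells.

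The DKO marrow also held other numbers of these cells. In the order TWT, IL-6 KO, DKO, TKO, classical monocytes numbered 574, 564, 2120 and 641, and T cells 342, 277, 964 and 212. Plasmacytoid dendritic cells, the main producers of type I interferon, numbered 119, 118, 7 and 114 in the same order, and their 39 genes summed to 1293 CPM (1211 to 1379) in TWT, 1806 CPM (1710.1 to 1906) in IL-6 KO and 1746 CPM (1649 to 1848) in TKO. Non-classical monocytes numbered 30, 51, 1265 and 102 in that order, and had 1059.8 CPM (879 to 1266), 1265 CPM (1100.3 to 1448), 628 CPM (608 to 648) and 1613 CPM (1481 to 1753). DKO was the lowest of the 4 in this second monocyte class as well, from only 30 cells in TWT.

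In classical monocytes the DKO/TWT ratio of the summed genes was 0.281 (0.273 to 0.289), and the DKO/TKO ratio was 0.183 (0.179 to 0.188). A member counted as measured if it reached 10 CPM in either of the compared libraries and 30 UMIs in the pair, and as lower or higher when its CPM differed 2-fold or more. Of the 31 members measured, 26 were lower in DKO than in TWT and 0 were higher, compared with 13.5% of all 7704 measured genes lower and 3.92% higher. The other 8 members did not reach this minimum. All 31 had ratios below 1, and their median log2 ratio was −1.56, while that of all measured genes was −0.28. Against TKO, 31 of 33 measured members were lower, compared with 12.3% of all genes. DKO was the lowest of the 4 libraries for all 34 members with at least 100 UMIs in the class, compared with 57.0% of all 9511 genes with as many.

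The libraries other than DKO differed less from each other. Of these, TKO carries the mDia1 and miR-146a deletions of DKO as well. The IL-6 KO/TWT ratio in monocytes was 1.27 (1.23 to 1.31), with 1 of 32 members higher (Usp18) against 0.428% of all genes. The TKO/TWT ratio was 1.53 (1.49 to 1.57), with 7 of 33 members higher, which were Ifit1, Ifit3, Isg15, Usp18, Oasl2, Oas3 and Rtp4, against 0.484% of all genes. TKO was the highest library for 25 of the 34 members with at least 100 UMIs (73.5%), compared with 21.1% of all genes with as many.

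The DKO cells in the monocyte gate also differed in markers of several classes. Of the gate's own 8 markers, Ly6c2 had 789.8 CPM in DKO, against 1305 in TWT, 1666 in IL-6 KO and 1721 in TKO, and F13a1 was the single marker past 2-fold lower in DKO. The 8 macrophage markers summed to 713 CPM in DKO, against 49.9 in TWT, 31 in IL-6 KO and 40.3 in TKO, and the 8 non-classical monocyte markers to 1061 CPM in DKO, against 427 in TWT, 331 in IL-6 KO and 388 in TKO, with none of either list at 0 in DKO. The 8 mature neutrophil markers summed to 285 CPM in DKO, against 159.9 in TWT, 191 in IL-6 KO and 198 in TKO, and of 6 measured, 4 were higher and 1 lower. Markers of conventional dendritic cells went the other way in sum, with 16.2 CPM in DKO, against 85.1 in TWT, 104 in IL-6 KO and 92.2 in TKO, as did those of granulocyte-monocyte progenitors, with 384 CPM in DKO, against 431 in TWT, 723 in IL-6 KO and 485 in TKO. Of 3 measured dendritic cell markers, 2 were lower and 0 higher, and of 5 measured progenitor markers, 2 were lower and 1 higher. Of all genes in this comparison, 3.92% were higher and 13.5% lower. The 8 T cell markers summed to 23.7 CPM in DKO, against 2.07 in TWT, 2.4 in IL-6 KO and 1.26 in TKO. In the cells with UMIs of both Ly6c2 and Ccr2, the receptor by which classical monocytes leave the marrow, the DKO/TWT ratio was 0.28 (0.272 to 0.289). In the few cells with no UMI of any macrophage or non-classical marker (93 in TWT, 80 in DKO), it was 0.328 (0.284 to 0.379). These cells made up 16.2% of the gate in TWT and 3.77% in DKO. The part of the other markers in the lower level was not tested.

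In T cells the DKO/TWT ratio was 1.4 (1.33 to 1.48). Of the 31 members measured, 12 were higher in DKO and 1, Irgm1, was lower, compared with 4.55% of all 7910 measured genes higher and 10.9% lower. The median log2 ratio of these members was 0.65, and that of all measured genes was −0.14. The 12 were Ifit1, Ifit3, Ifit3b, Isg15, Isg20, Irf7, Oas3, Usp18, Mx1, Zbp1, Rtp4 and Gbp2. Of the 28 members with at least 100 UMIs in the class, DKO was the highest library for 14 (50%) and the lowest for 5 (17.9%). Of all 6596 genes with as many, it was the highest for 28.9% and the lowest for 41.8%. TKO was the highest for 11 members (39.3%), compared with 26.9% of all genes. TKO T cells were close to DKO in sum, their DKO/TKO ratio being 0.957 (0.908 to 1.01), and had a TKO/TWT ratio of 1.46 (1.37 to 1.56). In TKO against TWT, 8 of 27 measured members were higher, compared with 1.68% of all genes, and these were Ifit3, Isg15, Irf7, Ifi27l2a, Rtp4, Gbp2, Igtp and Iigp1. In DKO against TKO, 3 of 31 were higher (Ifit3, Ifit3b and Isg20), compared with 3.3% of all genes, and 1 was lower (Ifi27l2a), compared with 9.29%. IL-6 KO and TWT were nearer, with a ratio of 1.06 (0.992 to 1.14) and 0 of 22 members 2-fold higher, compared with 1.27% of all genes.

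The T cells differed in makeup as well. Cells with a UMI of Cd8a or Cd8b1 and none of Cd4 made up 38% of the T cell gate in TWT and 41.5% in IL-6 KO, against 75.2% in DKO and 40.6% in TKO. Within these CD8 cells the summed level was 1085 CPM in TWT and 1358 in IL-6 KO, against 1778 in DKO and 1729 in TKO, a DKO/TWT ratio of 1.64 (1.51 to 1.77). Cells with Cd4 and no CD8 gene numbered 49 in TWT and 35 in DKO, and gave a ratio of 1.3 (1.11 to 1.52). Cells with a UMI of Ccr7 or Lef1, genes of naive and central memory T cells, gave 1.16 (1.08 to 1.26), and cells with neither gave 1.5 (1.4 to 1.62). Among CD8 cells alone, those with Ccr7 or Lef1 gave 1.28 (1.16 to 1.42) and those with neither gave 1.87 (1.64 to 2.15). A level above TWT was therefore found in DKO in each of these parts of the gate, least in cells with Ccr7 or Lef1. TKO was above TWT in each part too. The DKO/TKO ratio was 0.822 (0.688 to 0.983) in CD4 cells, of which TKO had 23, and 0.794 (0.732 to 0.862) in cells with Ccr7 or Lef1. It was 1.03 (0.953 to 1.11) in CD8 cells and 1.05 (0.981 to 1.13) in cells with neither Ccr7 nor Lef1.

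Markers of other cells in the T cell gate were measured too. The 8 classical monocyte markers summed to 1631 CPM in DKO, against 919 in TWT, 905 in IL-6 KO and 1399 in TKO, of which Ly6c2, a gene that memory CD8 cells also express, gave 1343 CPM in DKO, against 787 in TWT, 741 in IL-6 KO and 1233 in TKO. The 8 macrophage markers summed to 119 CPM in DKO, against 15.9 in TWT, 13.7 in IL-6 KO and 19.5 in TKO, with Vcam1 and Mrc1 at 0 in DKO, and the 8 NK cell markers to 261 CPM in DKO, against 437 in TWT, 595 in IL-6 KO and 559 in TKO. S100a8 and S100a9, abundant neutrophil genes whose RNA is often free in marrow suspensions, summed in this gate to 7878 CPM in DKO, against 15316 in TWT, 6843 in IL-6 KO and 10515 in TKO. The part of these genes in the higher level was not tested. In the T cells with no UMI of any of the 16 classical and non-classical monocyte markers (109 in TWT, 134 in DKO), the DKO/TWT ratio for the 39 genes was 1.42 (1.27 to 1.59). These cells made up 31.9% of the gate in TWT and 13.9% in DKO.

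**Figure D2:**
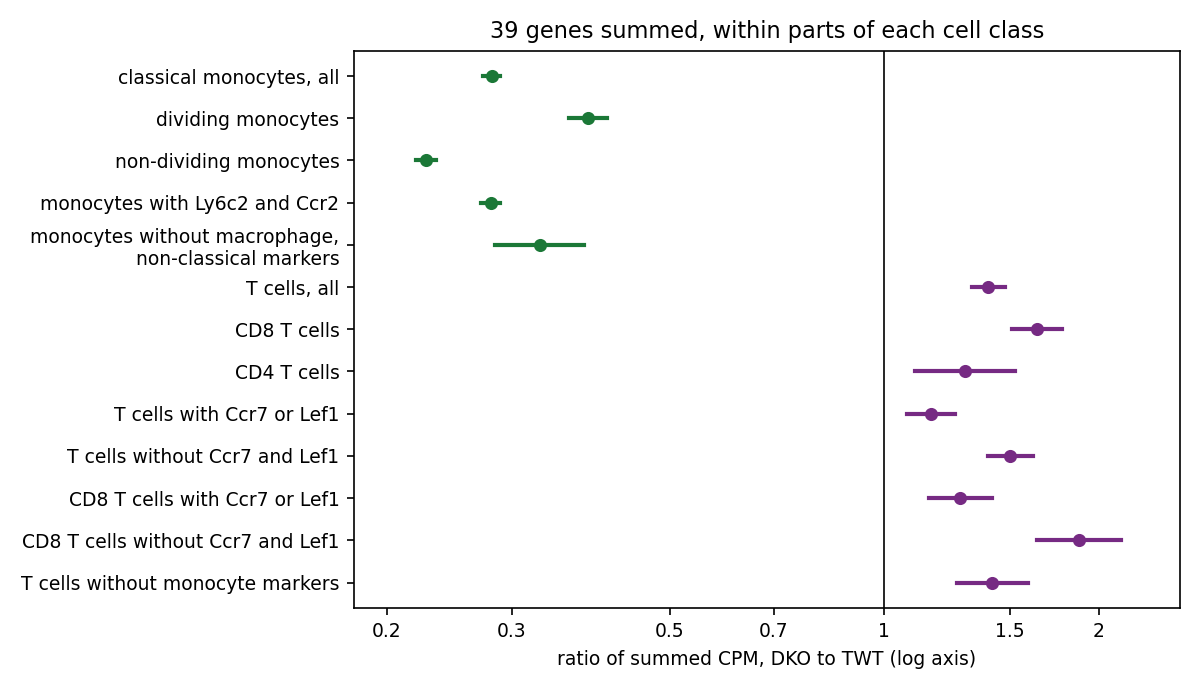
Ratio of the summed CPM of the 39 genes, DKO to TWT (x axis, log scale), in classical monocytes and T cells and in parts of each defined by single genes (y axis). Points are ratios and lines exact 95% counting intervals, and all monocyte points lie between 0.227 and 0.384 and all T cell points between 1.16 and 1.87.

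Monocytes with UMIs of at least 2 of 6 cell division genes (Mki67, Top2a, Birc5, Cdk1, Ccnb2 and Ube2c) made up 34.1% of the gate in TWT and 16.5% in DKO. They had less RNA of the 39 genes than the others in every library. Dividing cells had 1086 CPM in TWT and 417 in DKO, a ratio of 0.384 (0.361 to 0.408), and the remaining cells had 2472 and 562, a ratio of 0.227 (0.22 to 0.235). In TWT the remaining cells thus had over 2-fold the level of dividing ones, while in DKO both levels lay closer together.

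The members of each role are described in turn. Values are CPM of 1 library each, for members with at least 100 UMIs in the class over the 4 libraries. CPM of 3′ tags depends on the gene as well as on its RNA, so levels are compared between libraries and not between genes.

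**Figure D3:**
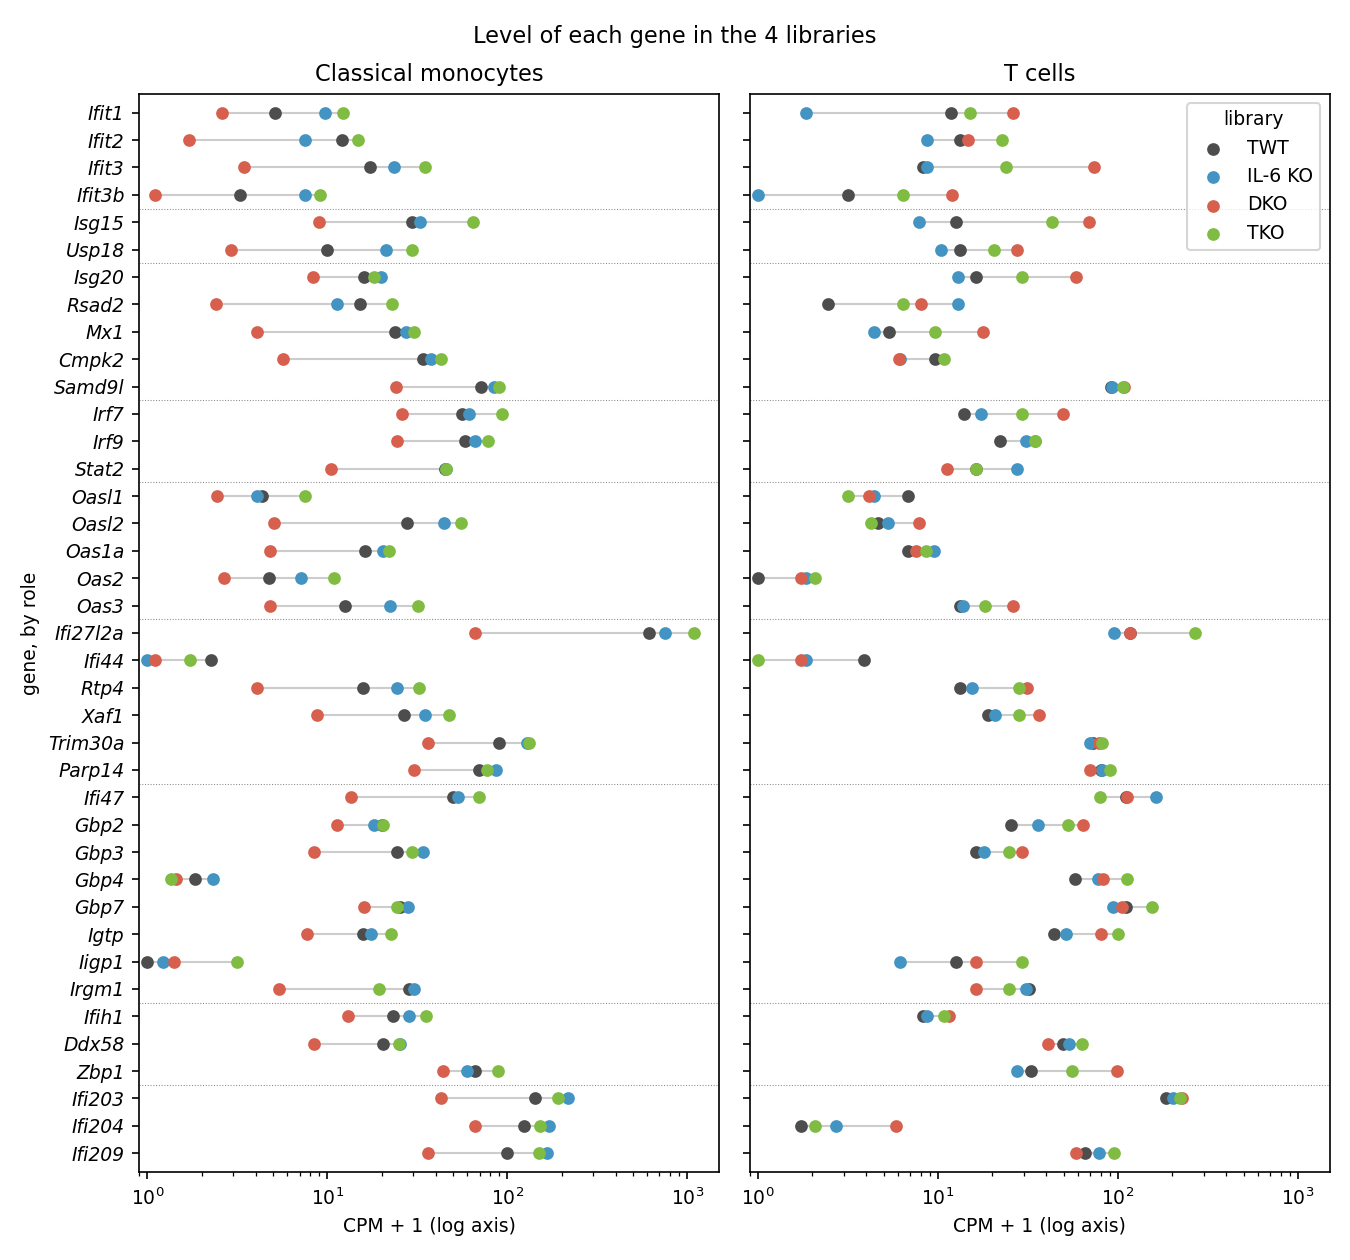
Level of each of the 39 genes (y axis, grouped by role with dotted lines) as CPM + 1 (x axis, log scale) in classical monocytes (left) and T cells (right), with 1 point for each library. The DKO points are leftmost for 36 genes in monocytes, and in T cells those of Ifit3, Isg15, Isg20, Irf7, Zbp1 and others are rightmost.

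The IFIT proteins bind foreign RNA and block its translation. In monocytes, Ifit3 had 2.45 CPM in DKO, against 16.2 in TWT, 22.5 in IL-6 KO and 33.7 in TKO. Ifit2 had 0.7 CPM in DKO, against 11 in TWT, 6.54 in IL-6 KO and 13.9 in TKO. Ifit1 had 1.6 CPM in DKO, against 4.14 in TWT, 8.72 in IL-6 KO and 11.2 in TKO. DKO was lowest for all of them, and for Ifit2 the DKO/TWT ratio was 0.0638 (0.0327 to 0.117). In T cells DKO was the highest library for Ifit3, with 72.1 CPM in DKO, against 7.22 in TWT, 7.69 in IL-6 KO and 22.7 in TKO, a DKO/TWT ratio of 9.98 (5.35 to 21), the highest of any member measured. Ifit1 in T cells had 25 CPM in DKO, against 10.8 in TWT, 0.854 in IL-6 KO and 14.1 in TKO. Ifit2 had 13.6 CPM in DKO, against 12.3 in TWT, 7.69 in IL-6 KO and 21.6 in TKO, where DKO and TWT differed by less than counting error. Ifit3 was also higher in DKO T cells than in TKO T cells, with a ratio of 3.17 (2.04 to 5.2). Ifit3b lies beside Ifit3, and 12.9% of the 60-base stretches in the last 500 bases of Ifit3 transcripts were also found in Ifit3b, so reads from there cannot be told apart.

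Isg15 is a ubiquitin-like protein that is attached to other proteins or secreted, and Usp18 removes it and dampens the type I receptor. In monocytes, Isg15 had 8.0 CPM in DKO, against 28.4 in TWT, 31.6 in IL-6 KO and 63.8 in TKO. Usp18 had 1.9 CPM in DKO, against 8.91 in TWT, 20.3 in IL-6 KO and 28.6 in TKO. Both were lowest in DKO and highest in TKO. In T cells, Isg15 had 68.2 CPM in DKO, against 11.6 in TWT, 6.83 in IL-6 KO and 42.2 in TKO, with a DKO/TWT ratio of 5.9 (3.57 to 10.5). Usp18 in T cells had 26.5 CPM in DKO, against 12.3 in TWT, 9.4 in IL-6 KO and 19.5 in TKO. DKO and TKO were the highest libraries for both, and for Isg15 the DKO/TKO ratio was 1.62 (1.15 to 2.32).

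Among the other antiviral effectors, Cmpk2, a nucleotide kinase encoded next to Rsad2, had, in monocytes, 4.7 CPM in DKO, against 32.9 in TWT, 36.9 in IL-6 KO and 41.6 in TKO. Rsad2 (viperin, which makes a chain-terminating nucleotide) had 1.4 CPM in DKO, against 14.1 in TWT, 10.3 in IL-6 KO and 21.8 in TKO. Mx1, a gene of the dynamin-like GTPases, had 3.05 CPM in DKO, against 22.8 in TWT, 26.2 in IL-6 KO and 29.2 in TKO. The DKO/TWT ratios of these were 0.143 (0.109 to 0.185), 0.0995 (0.0616 to 0.157) and 0.134 (0.0963 to 0.185). Samd9l, a translation inhibitor, had 23.2 CPM in DKO, against 70.01 in TWT, 83.5 in IL-6 KO and 88.6 in TKO. Isg20, an exonuclease, had 7.35 CPM in DKO, against 14.9 in TWT, 18.8 in IL-6 KO and 17.1 in TKO, where DKO was just past 2-fold below TWT. In T cells Isg20 had 57.8 CPM in DKO, against 15.2 in TWT, 12 in IL-6 KO and 28.1 in TKO, a DKO/TWT ratio of 3.81 (2.43 to 6.27). Samd9l in T cells had 107 CPM in DKO, against 90.3 in TWT, 91.4 in IL-6 KO and 105 in TKO, within counting error between DKO and TWT. Mx1 in T cells had only 87 UMIs over the 4 libraries, with a DKO/TWT ratio of 3.86 (1.69 to 10.9).

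Irf7, Irf9 and Stat2 are the transcription factors that drive and amplify the response. In monocytes, Irf7 had 25 CPM in DKO, against 55.3 in TWT, 59.98 in IL-6 KO and 92.6 in TKO. Irf9 had 23.5 CPM in DKO, against 57.2 in TWT, 65 in IL-6 KO and 76.9 in TKO. Stat2 had 9.51 CPM in DKO, against 43.9 in TWT, 44.7 in IL-6 KO and 44.8 in TKO. Each was over 2-fold lower in DKO than in every other library. In T cells, Irf7 had 48.5 CPM in DKO, against 13 in TWT, 16.2 in IL-6 KO and 28.1 in TKO, a DKO/TWT ratio of 3.73 (2.3 to 6.43). Irf9 had 33.5 CPM in DKO, against 20.9 in TWT, 29.9 in IL-6 KO and 33.6 in TKO. Stat2 had 10.2 CPM in DKO, against 15.2 in TWT, 26.5 in IL-6 KO and 15.2 in TKO. Of these factors, Irf7 alone passed 2-fold between DKO and TWT in T cells. Stat2 was lowest in DKO, with a DKO/TWT ratio of 0.672 (0.389 to 1.19), within counting error.

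Several members of the OAS family, but not all, make short oligoadenylates that activate RNase L. In monocytes, Oasl2 had 4.05 CPM in DKO, against 26.7 in TWT, 43.4 in IL-6 KO and 54.2 in TKO. Oas3 had 3.8 CPM in DKO, against 11.6 in TWT, 21.2 in IL-6 KO and 30.8 in TKO. Oas1a had 3.8 CPM in DKO, against 15.1 in TWT, 19.4 in IL-6 KO and 20.9 in TKO. Oas2 had 1.65 CPM in DKO, against 3.73 in TWT, 6.11 in IL-6 KO and 9.91 in TKO. DKO was lowest and TKO highest for all of them. In T cells only Oas3 passed 100 UMIs, with 25 CPM in DKO, against 12.3 in TWT, 12.8 in IL-6 KO and 17.3 in TKO and a DKO/TWT ratio of 2.04 (1.21 to 3.63). Of the 60-base stretches at the 3′ end of Oas1a, 51.2% were shared with Oas1g, so its counts are uncertain.

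The group of other induced genes held the member with the most UMIs. Ifi27l2a, a small membrane protein gene, had, in monocytes, 64.8 CPM in DKO, against 613 in TWT, 747 in IL-6 KO and 1084 in TKO, a DKO/TWT ratio of 0.106 (0.099 to 0.113). Without it the ratio of the summed members was 0.366. In T cells Ifi27l2a had 115 CPM in DKO, against 115 in TWT, 94 in IL-6 KO and 265 in TKO, with a DKO/TWT ratio of 1.0 (0.837 to 1.21), within counting error, and TKO the highest. Rtp4, a chaperone that restrains the response, had, in monocytes, 3.05 CPM in DKO, against 14.7 in TWT, 23.3 in IL-6 KO and 31.3 in TKO. Its level in T cells was 30.1 CPM in DKO, against 12.3 in TWT, 14.5 in IL-6 KO and 27.1 in TKO. Xaf1, an antagonist of apoptosis inhibitors, had, in monocytes, 7.8 CPM in DKO, against 25.7 in TWT, 33.8 in IL-6 KO and 46.3 in TKO. Its level in T cells was 35.2 CPM in DKO, against 18.1 in TWT, 19.6 in IL-6 KO and 27.1 in TKO. Both were lowest in DKO monocytes and highest in DKO T cells. Trim30a had, in monocytes, 35 CPM in DKO, against 88.9 in TWT, 127 in IL-6 KO and 131 in TKO. Its level in T cells was 77.7 CPM in DKO, against 71.5 in TWT, 69.2 in IL-6 KO and 80.1 in TKO. Parp14, an ADP-ribosyltransferase, had, in monocytes, 29.5 CPM in DKO, against 68.4 in TWT, 85.9 in IL-6 KO and 75.8 in TKO. Its level in T cells was 68.4 CPM in DKO, against 79.4 in TWT, 80.3 in IL-6 KO and 88.8 in TKO. The last pair was over 2-fold lower in DKO monocytes and did not differ 2-fold between any libraries in T cells.

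The GBP and IRG proteins are GTPases induced above all by interferon-γ that act on vacuoles of microbes. In monocytes, Ifi47 had 12.6 CPM in DKO, against 48.7 in TWT, 52.3 in IL-6 KO and 68.4 in TKO. Irgm1, a regulator of the other IRG proteins, had 4.4 CPM in DKO, against 27.3 in TWT, 29.2 in IL-6 KO and 18.4 in TKO. Gbp7 had 14.9 CPM in DKO, against 24.4 in TWT, 27 in IL-6 KO and 23.4 in TKO. Gbp3 had 7.4 CPM in DKO, against 23.4 in TWT, 33.2 in IL-6 KO and 28.5 in TKO. Gbp2 had 10.3 CPM in DKO, against 19.1 in TWT, 17.2 in IL-6 KO and 19.3 in TKO. Igtp had 6.7 CPM in DKO, against 14.7 in TWT, 16.4 in IL-6 KO and 21.6 in TKO. As a group these GTPases summed to a DKO/TWT ratio of 0.36 (0.328 to 0.395), against 0.145 (0.111 to 0.187) for the IFIT genes. Of these, Gbp2 and Gbp7 did not reach 2-fold. In T cells, Gbp2 had 62.9 CPM in DKO, against 24.6 in TWT, 35 in IL-6 KO and 52 in TKO, a DKO/TWT ratio of 2.56 (1.79 to 3.78). Igtp had 79.8 CPM in DKO, against 43.3 in TWT, 50.4 in IL-6 KO and 98.5 in TKO. Gbp4 had 81.3 CPM in DKO, against 56.3 in TWT, 76 in IL-6 KO and 111 in TKO. Iigp1 had 15.3 CPM in DKO, against 11.6 in TWT, 5.13 in IL-6 KO and 28.1 in TKO. These members were highest in DKO or TKO. Gbp3 had 28.1 CPM in DKO, against 15.2 in TWT, 17.1 in IL-6 KO and 23.8 in TKO. Gbp7 had 104 CPM in DKO, against 109 in TWT, 93.1 in IL-6 KO and 153 in TKO. Ifi47 had 110.4 CPM in DKO, against 109.8 in TWT, 161 in IL-6 KO and 77.9 in TKO, both within counting error between DKO and TWT. Irgm1 had 15.3 CPM in DKO, against 31.1 in TWT, 29.9 in IL-6 KO and 23.8 in TKO, just past 2-fold below TWT, and 5 of the 9 other settings tried counted 0 members as lower.

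Of the RNA and DNA sensors, Ifih1 (MDA5) and Ddx58 (RIG-I) detect viral RNA, and Zbp1 detects left-handed nucleic acid and can trigger cell death. In monocytes, Zbp1 had 42.9 CPM in DKO, against 65.5 in TWT, 58.7 in IL-6 KO and 87.3 in TKO. Ifih1 had 12 CPM in DKO, against 22.2 in TWT, 27.3 in IL-6 KO and 34.4 in TKO. Ddx58 had 7.4 CPM in DKO, against 19.3 in TWT, 24.4 in IL-6 KO and 24.1 in TKO. This group had the smallest difference in monocytes, with a summed DKO/TWT ratio of 0.583 (0.526 to 0.647) and Ddx58 alone past 2-fold. In T cells, Zbp1 had 97.6 CPM in DKO, against 31.8 in TWT, 26.5 in IL-6 KO and 54.1 in TKO, a DKO/TWT ratio of 3.07 (2.25 to 4.29). Ddx58 in T cells had 40.04 CPM in DKO, against 48.4 in TWT, 52.1 in IL-6 KO and 61.7 in TKO. DKO was the highest library for Zbp1. For Ddx58 it was the lowest, with a DKO/TWT ratio of 0.828 (0.619 to 1.12), within counting error.

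The PYHIN proteins sense DNA in the nucleus and cytosol. In monocytes, Ifi203 had 41.5 CPM in DKO, against 141 in TWT, 217 in IL-6 KO and 191 in TKO. Ifi204 had 65.2 CPM in DKO, against 122 in TWT, 168 in IL-6 KO and 150.4 in TKO. Ifi209 had 35 CPM in DKO, against 98 in TWT, 164 in IL-6 KO and 149 in TKO. DKO was lowest for all of them, with Ifi204 just short of 2-fold below TWT. In T cells, Ifi203 had 226 CPM in DKO, against 184 in TWT, 199.9 in IL-6 KO and 219 in TKO. Ifi209 had 57.8 CPM in DKO, against 64.3 in TWT, 76.9 in IL-6 KO and 94.2 in TKO. Neither differed 2-fold between any libraries compared. Of the 60-base stretches at the 3′ end of Ifi209, 61.5% were shared with Ifi214.

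The members with fewer than 100 UMIs in monocytes were Ifit3b, Oasl1, Ifi44, Gbp4 and Iigp1, each with at most 8.1 CPM in any library. Those in T cells were Ifit3b, Oas1a, Oas2, Oasl1, Oasl2, Rsad2, Mx1, Cmpk2, Ifi44, Ifih1 and Ifi204, each with at most 16.7 CPM.

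Set side by side, 26 members were measured in both classes. Of these, 20 (76.9%) had a DKO/TWT ratio below 1 in monocytes and above 1 in T cells, compared with 19.7% of the 6682 genes measured in both. None had the opposite pattern, and 6 were below 1 in both. For 7 members, Ifit3, Isg15, Isg20, Irf7, Oas3, Mx1 and Rtp4, both differences passed 2-fold, compared with 0.314% of all genes. The difference of the 2 log2 ratios (T cells minus monocytes) had a median of 2.10 over the 26 members and 0.15 over all genes. Against TKO in place of TWT, 17 of 28 members (60.7%) had this pattern, compared with 20.4% of all genes, and Ifit3 and Isg20 passed 2-fold in both classes. In TKO against TWT, 1 of 25 members had it (4%), compared with 25.1% of all genes. These comparisons share libraries. The opposite directions with DKO were known from earlier results of these data, so the counts describe them.

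**Figure D4:**
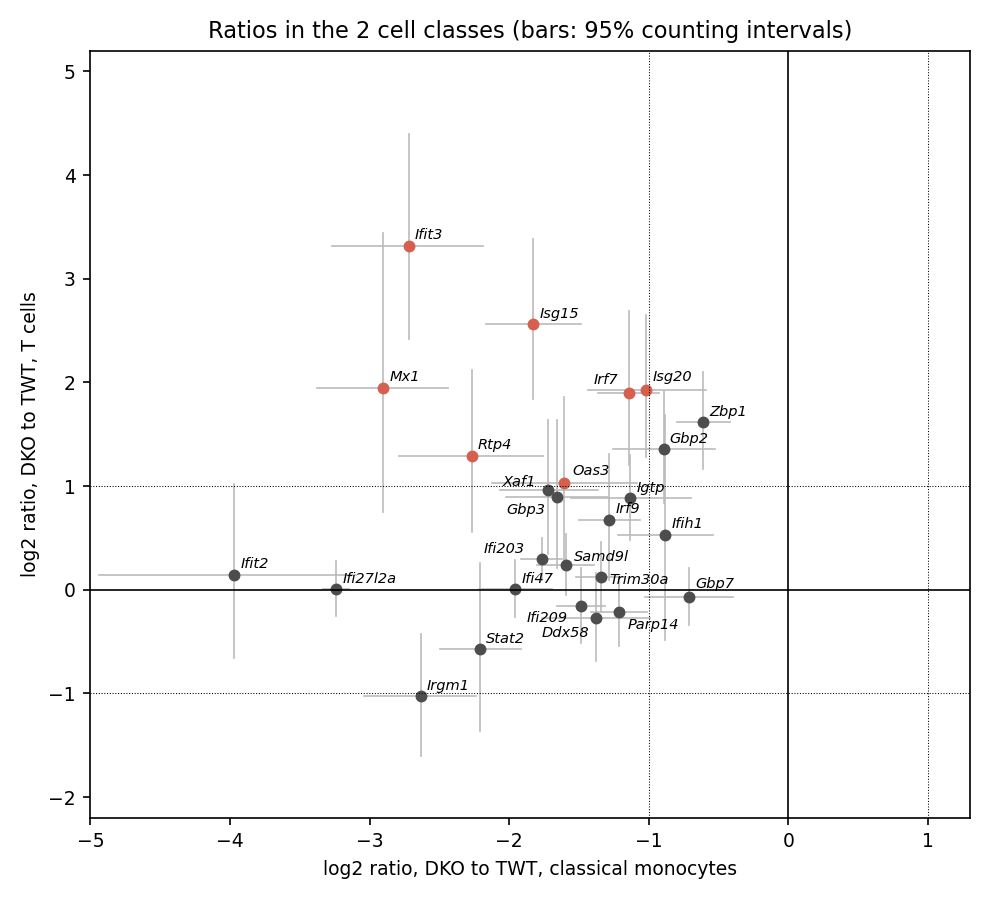
Log2 DKO/TWT ratio in classical monocytes (x axis) and T cells (y axis) for the 26 members measured in both, with lines for 95% counting intervals and dotted lines at 2-fold. All points lie left of 0 on the x axis, and 20 lie above 0 on the y axis, with Ifit2, Ifi27l2a and Ifi47 close to it. The 7 members past 2-fold in both are in red.

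To compare single cells at 1 depth, each cell was thinned to 2000 UMIs and cells with fewer were left out (5 to 55 monocytes and 11 to 92 T cells per library). The mean number of UMIs of the 39 genes per monocyte was 1.11 in DKO, against 4.13 in TWT, 5.44 in IL-6 KO and 6.27 in TKO. In the order TWT, IL-6 KO, DKO, TKO, at least 1 such UMI was found in 88.7%, 92.5%, 58.5% and 93.5% of the monocytes, and at least 3 in 52.9%, 68.7%, 11.5% and 74.6%. Both shares were lowest in DKO monocytes. T cells had means of 2.81, 2.89, 3.92 and 3.88 UMIs in the same order, with medians of 2, 2, 2 and 3. At least 1 UMI was found in 91.1%, 89.3%, 91.1% and 93.0% of them, and at least 3 in 44.4%, 49.8%, 49.7% and 60.7%. By the latter share DKO was level with IL-6 KO and below TKO.

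Among the T cell libraries, DKO had the largest part of the RNA in a minority of cells. The top 10% of T cells by these UMIs held 40.1% of them in DKO, 33.1% in TKO, 29.9% in TWT and 26.2% in IL-6 KO. In classical monocytes this share was 40.95% in DKO, 32.1% in TKO, 40.07% in TWT and 33.8% in IL-6 KO. In mature neutrophils it was 42.3%, 35.3%, 40.6% and 40.8% in that order. A share of this size was therefore not particular to DKO T cells. A UMI of Ifit3 was found in 81 of 872 DKO T cells (9.29%, exact 95% interval 7.45% to 11.4%), compared with 3 of 304 in TWT (0.987%, 0.204% to 2.86%), 3 of 261 in IL-6 KO and 8 of 201 in TKO. In DKO monocytes, where Ifit3 was low, the share was 9 of 2065 cells (0.436%, 0.199% to 0.826%), below that of T cells of the same library. The median depth before thinning was 9323 UMIs in DKO monocytes and 3718.5 in DKO T cells. Of the 81 DKO T cells with Ifit3, 28 (34.6%) also had Isg15, compared with 29 of the other 791 (3.67%). In TKO, 2 of the 8 T cells with Ifit3 also had Isg15, compared with 12 of the other 193 (6.22%), and TWT and IL-6 KO had too few such cells to compare.

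**Figure D5:**
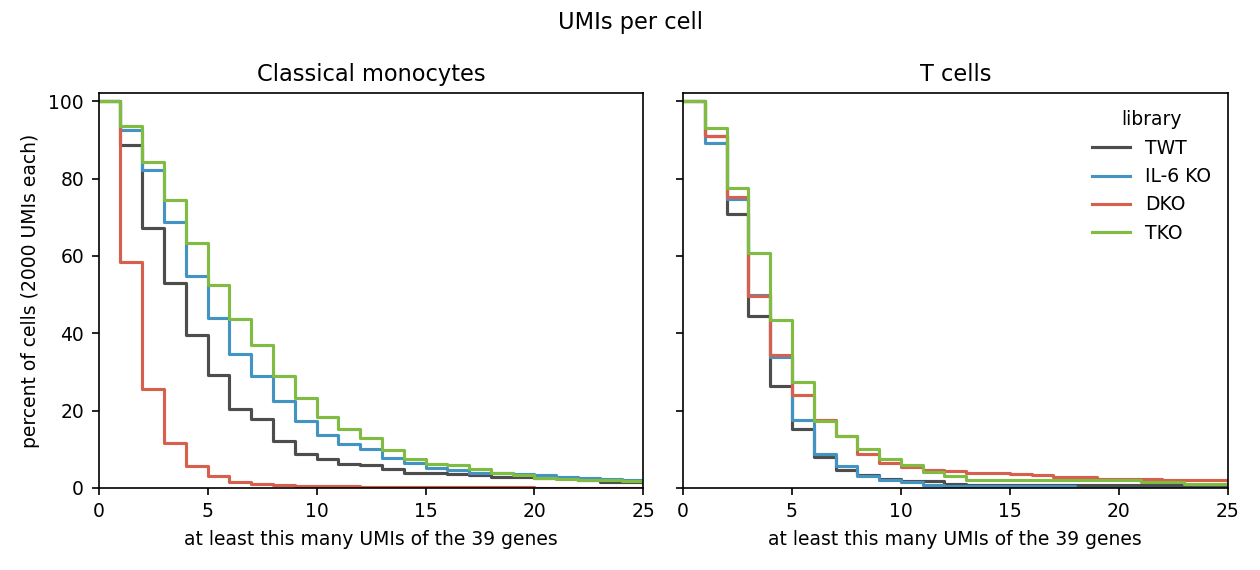
Percent of cells (y axis) with at least a given number of UMIs of the 39 genes (x axis) after each cell was thinned to 2000 UMIs, in classical monocytes (left) and T cells (right) of each library. The DKO curve lies lowest in monocytes, and in T cells it joins that of TWT at the left and lies above those of TWT and IL-6 KO at the right.

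Mature neutrophils had the same order of libraries as monocytes. The DKO/TWT ratio was 0.575 (0.552 to 0.598), with 7 of 19 measured members lower, compared with 9.24% of all genes. The TKO/TWT ratio was 1.93 (1.88 to 1.99), with 12 of 26 members higher, compared with 0.456% of all genes. Ifi27l2a had 10.5 CPM in DKO, against 76.3 in TWT, 131 in IL-6 KO and 281 in TKO. Rtp4 had 7.81 CPM in DKO, against 20.9 in TWT, 55.5 in IL-6 KO and 86.4 in TKO. Oas3 had 33.8 CPM in DKO, against 69.6 in TWT, 81 in IL-6 KO and 131 in TKO. Oasl2 had 12.9 CPM in DKO, against 56.6 in TWT, 78.5 in IL-6 KO and 120.1 in TKO. Irf7 went another way in these cells, with 32.4 CPM in DKO, against 21.1 in TWT, 32.4 in IL-6 KO and 43.7 in TKO, so DKO was not the lowest for it. DKO cells in this gate had a median of 5672 UMIs, compared with 3029 in TWT, and after thinning to 2000 UMIs the mean of member UMIs per cell was 1.11 in DKO, against 1.85 in TWT, 2.77 in IL-6 KO and 3.55 in TKO.

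B cells stood between monocytes and T cells in the ratio of the summed genes. The DKO/TWT ratio was 0.828 (0.776 to 0.883), with 3 of 21 members lower and 2 higher, compared with 18.7% and 2.49% of all genes. The share of members lower was thus not above that of all genes. The higher ones were Irf7, with 21.9 CPM in DKO, against 6.28 in TWT, 4.87 in IL-6 KO and 11.3 in TKO, and Zbp1, with 32.5 CPM in DKO, against 11.8 in TWT, 15.6 in IL-6 KO and 29.1 in TKO, both also high in DKO T cells. Ifi27l2a in B cells had 98.1 CPM in DKO, against 166 in TWT, 232 in IL-6 KO and 350.1 in TKO. The TKO/TWT ratio was 1.51 (1.44 to 1.58), with 6 of 25 members higher, compared with 1.1% of all genes. TKO thus exceeded TWT in monocytes, T cells, B cells and mature neutrophils alike.

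Interferon genes themselves were nearly absent from the counts. The 18 type I and type III interferon genes of the pathway list together had 2 UMIs in each of TWT and DKO and 0 in each of IL-6 KO and TKO, over all barcodes. These 4 UMIs were all of Ifnk. No order of the libraries can be read from so few UMIs. Ifng had 184 UMIs in DKO, against 28 in TWT, 36 in IL-6 KO and 50 in TKO. In the T cells Ifng had 38.6 CPM in DKO, against 10.8 in TWT, 16.2 in IL-6 KO and 26 in TKO, from 159, 15, 19 and 24 UMIs.

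Of the 82 further genes of interferon signaling that were listed and present in the matrices, 49 were measured in monocytes, where 17 were lower in DKO than in TWT and 2 higher, compared with 13.5% and 3.92% of all genes, so that the share higher was near that of all genes. In T cells 54 were measured, with 10 higher and 1 lower, compared with 4.55% and 10.9% of all genes. Among receptors in monocytes, Ifnar1 had 57.7 CPM in DKO, against 70.8 in TWT, 56.9 in IL-6 KO and 63 in TKO. Ifnar2 had 115 CPM in DKO, against 154 in TWT, 150.5 in IL-6 KO and 201 in TKO. Ifngr2 had 148 CPM in DKO, against 158 in TWT, 149 in IL-6 KO and 142 in TKO. None of these differed 2-fold between DKO and TWT, while Ifngr1 was higher in DKO, with 766 CPM in DKO, against 358 in TWT, 322 in IL-6 KO and 360.2 in TKO. In T cells Ifnar1 had 60.4 CPM in DKO, against 61.4 in TWT, 77.7 in IL-6 KO and 80.1 in TKO. Ifngr1 had 477 CPM in DKO, against 296 in TWT, 432 in IL-6 KO and 299 in TKO, neither past 2-fold. Ifnar2 in T cells had 67 CPM in DKO, against 70.8 in TWT, 70.05 in IL-6 KO and 75.8 in TKO. Ifngr2 had 9.71 CPM in DKO, against 10.1 in TWT, 17.1 in IL-6 KO and 13 in TKO. Ifnlr1, of the type III receptor, had at most 2.0 CPM in either class, and its partner Il10rb had, in monocytes, 88.1 CPM in DKO, against 54.3 in TWT, 56.1 in IL-6 KO and 55.8 in TKO. In T cells Il10rb had 111 CPM in DKO, against 86.7 in TWT, 88.8 in IL-6 KO and 123 in TKO.

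Tyk2, a receptor kinase, was the gene lower in DKO in both classes. In monocytes it had 30.5 CPM in DKO, against 69.8 in TWT, 60.2 in IL-6 KO and 61.4 in TKO. In T cells it had 20.6 CPM in DKO, against 51.3 in TWT, 57.2 in IL-6 KO and 69.3 in TKO. Irf8, a factor of monocyte development, had, in monocytes, 161 CPM in DKO, against 438 in TWT, 546 in IL-6 KO and 559.7 in TKO. Pias1, an inhibitor of STAT signaling, had 24.5 CPM in DKO, against 62.3 in TWT, 61.7 in IL-6 KO and 58 in TKO. Mavs, the adaptor of the RNA sensors, had 6.8 CPM in DKO, against 14.3 in TWT, 14.4 in IL-6 KO and 11.3 in TKO. Mb21d1 (cGAS, a DNA sensor) had 5.15 CPM in DKO, against 24.9 in TWT, 29.2 in IL-6 KO and 26.1 in TKO. These were all lower in DKO monocytes.

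Socs3, an inhibitor of cytokine receptors that IL-6 family cytokines induce, stood apart in monocytes. It had 119 CPM in DKO, against 7.46 in TWT, 1.96 in IL-6 KO and 4.32 in TKO, from 2386, 36, 9 and 24 UMIs. Socs1, an inhibitor induced by interferon-γ, was higher in DKO T cells, with 130.3 CPM in DKO, against 58.5 in TWT, 75.2 in IL-6 KO and 93.1 in TKO. Its level in monocytes was at most 3.27 CPM.

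Among 33 further induced genes outside the member list, 23 were measured in monocytes and 11 were lower in DKO, with 0 higher, compared with the 13.5% and 3.92% of all genes. In T cells 28 were measured, with 8 higher and 0 lower, compared with the 4.55% and 10.9% of all genes. Bst2 (tetherin, which holds virus at the cell surface), Cxcl10 (a chemokine) and Ifi211 (a PYHIN protein) were in both counts. Bst2 had, in monocytes, 47.3 CPM in DKO, against 126 in TWT, 181 in IL-6 KO and 192 in TKO. In T cells it had 131 CPM in DKO, against 49.8 in TWT, 62.4 in IL-6 KO and 113 in TKO. Ifi211 had, in monocytes, 16.8 CPM in DKO, against 46.4 in TWT, 84.2 in IL-6 KO and 95.6 in TKO. In T cells it had 10.7 CPM in DKO, against 3.61 in TWT, 2.56 in IL-6 KO and 2.16 in TKO. Cxcl10 had, in monocytes, 3.55 CPM in DKO, against 19.5 in TWT, 8.07 in IL-6 KO and 25.6 in TKO. In T cells Cxcl10 had 19.7 CPM in DKO, against 7.94 in TWT, 17.9 in IL-6 KO and 5.41 in TKO. The others lower in DKO monocytes were Slfn5, Slfn8, Sp100, Tap1, Dtx3l, Eif2ak2, Adar and Irgm2. Slfn5 had 28.9 CPM in DKO, against 174 in TWT, 242 in IL-6 KO and 214 in TKO. Sp100 had 81.6 CPM in DKO, against 206 in TWT, 239 in IL-6 KO and 251 in TKO. Slfn8 had 9.51 CPM in DKO, against 39.8 in TWT, 54.1 in IL-6 KO and 48.3 in TKO. Tap1, a peptide transporter, had 45.6 CPM in DKO, against 109 in TWT, 94.9 in IL-6 KO and 123 in TKO. Dtx3l, a ubiquitin ligase, had 24 CPM in DKO, against 54.3 in TWT, 56.9 in IL-6 KO and 59.8 in TKO. Eif2ak2 (PKR, which stops translation) had 16.7 CPM in DKO, against 45.4 in TWT, 64.8 in IL-6 KO and 62.7 in TKO. Adar, an RNA editor, had 13.7 CPM in DKO, against 42 in TWT, 46.9 in IL-6 KO and 43.6 in TKO. Irgm2 had 2.85 CPM in DKO, against 13 in TWT, 12.2 in IL-6 KO and 14.2 in TKO. For each of them DKO was the lowest of the 4 libraries in monocytes.

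The others higher in DKO T cells were Psmb8, Psmb10, Ly6a, Nmi and Dhx58. Psmb8, a subunit of the immunoproteasome, had 1169.9 CPM in DKO, against 514 in TWT, 580.0 in IL-6 KO and 749 in TKO, and its companion subunit Psmb10 had 373 CPM in DKO, against 172 in TWT, 202 in IL-6 KO and 281 in TKO. Ly6a, the Sca-1 antigen, had 776 CPM in DKO, against 160.3 in TWT, 115 in IL-6 KO and 176 in TKO. Nmi had 106 CPM in DKO, against 52 in TWT, 48.7 in IL-6 KO and 61.7 in TKO. Dhx58, a regulator of the RNA sensors, had 14.3 CPM in DKO, against 4.33 in TWT, 9.4 in IL-6 KO and 11.9 in TKO. DKO was the highest library for all of them. Psmb8 in monocytes had 369.9 CPM in DKO, against 449 in TWT, 412 in IL-6 KO and 533 in TKO, so this subunit did not pass 2-fold there.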

How the data were processed

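Bone marrow of 4 genotypes (TWT, IL-6 KO, DKO and TKO, 1 library each) was profiled with the 10x Genomics 3′ v3 chemistry for single-cell RNA. The authors mapped reads to mm10 with Cell Ranger (version 3.0.2 by the matrix headers) and deposited whole-number UMI counts per gene and barcode, without normalization. The strand setting of the counting was not given in the sources used here.

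Barcodes with 500 to 4000 detected genes and at most 15% mt- UMIs were kept. A cell was placed in a class with UMIs of at least 3 of its 8 markers, at least 1 more than any class of its family and 2 more than any other. UMIs were summed per class and library and scaled to CPM of all UMIs of those cells. Ratios have exact conditional and levels exact Poisson 95% intervals. Log2 ratios have a pseudocount of 1 CPM. There was no test between genotypes and no paired analysis, with 1 library each, and the depth sets only the counting error. Doublets were scored with Scrublet in scanpy 1.11.5 and not removed in the main values. The other steps used Python 3.11.15, numpy 2.4.6, scipy 1.17.1, pandas 2.3.3 and matplotlib 3.10.9. Gene positions are from GENCODE vM21 (GRCm38, the build of mm10) and promoters from RefSeq.

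The members, lists and markers were chosen with earlier results of these data known. Values in each library are given for members with at least 100 UMIs in monocytes or T cells, and for the listed pathway genes past 2-fold, the interferon receptors and the interferon genes, except for some genes of these lists that are not reported here. Alternatives changed the gate, the cell filter, doublets, scaling, the summary over cells, the minimum level, the pseudocount and the subset of cells. Of the 84 pathway genes listed, 82 were found by symbol. Cells outside the 15 classes were used only in whole-library values.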

Additional observations from a re-analysis of the deposited data

Results flagged for a closer look

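The summed members went in opposite directions in monocytes and T cells under the same contrast. The log2 ratio of DKO to TWT was −1.83 in classical monocytes and 0.49 in T cells, a difference of 2.32 (T cells minus monocytes). With 1 library per genotype this difference was not tested. DKO was the lowest of 4 libraries in monocytes, while in T cells DKO and TKO lay together above TWT and IL-6 KO.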

How the results depend on the processing

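No setting turned the direction of the summed members in either class. The ratio of the summed members, DKO to TWT, in monocytes (0.281) became 0.347 with 200 detected genes as the only cell filter, 0.262 as the mean of each cell's CPM, 0.366 without Ifi27l2a, 0.384 in dividing and 0.227 in non-dividing cells and 0.328 in cells without macrophage and non-classical markers. In T cells (1.40) it became 1.64 in CD8 cells, 1.3 in CD4 cells, 1.16 in cells with Ccr7 or Lef1 and 1.5 in cells with neither. Members lower in DKO monocytes (26) numbered 8 with a minimum of 50 CPM, where fewer genes were tested, and 16 with a pseudocount of 10 CPM. Members higher in DKO T cells (12) numbered 5 and 6 under these settings, and those lower (1, Irgm1) numbered 0 in 5 of 9 settings. The cause was not tested for the other changes. Gating on cells thinned to 2000 UMIs, 4 markers instead of 3, and CPM without genes above 1% of a class gave 0.281 to 0.282 in monocytes and 1.35 to 1.47 in T cells. Removal of the Scrublet calls was not run, since the caller marked 1 of 10866 DKO barcodes (0.0092%). Removal of the 8% of barcodes with the highest scores, chosen after seeing the data as were the Ccr7 or Lef1 split and the sets without markers, gave 0.276 and 1.46. No paired analysis was possible because each genotype has 1 library. Spread between mice is not measured by any interval given, and members with few UMIs, such as Mx1 in T cells, have wide counting intervals.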
